A study of Mus musculus with 8 samples.

Results

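The 15589 regions described here were open in both parts of the mouse lens, epithelium and fibers, at E14.5 and in the epithelium at P0.5, and were missing only in P0.5 fibers. They were selected on the peak calls themselves, as merged regions of chromosomes 1 to 19 and X that held at least 1 peak of each of the 3 other lists and none of the P0.5 fiber list. They were 15589 of 185247 merged regions, and another 20106 regions held a peak of all 4 lists. ATAC-seq, in which a transposase cuts and tags accessible DNA, was run on the epithelium and the fibers dissected from lenses of CD1 mice, as embryos (E14.5) and as newborns (P0.5), with 8 libraries in all. CD1 is an outbred strain, no group carried a treatment or an engineered allele, and several lenses went into each library. The 2 libraries of a group were pooled before peaks were called, so each group had 1 list and no spread between replicates could be measured. Intervals given below cover counting error only.

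The ocular lens is an anterior sheet of epithelial cells over a mass of fiber cells. Epithelial cells near the equator leave the cell cycle, elongate into fibers, fill with crystallins and later break down their nuclei and organelles, while the epithelium goes on supplying new fibers. Promoters tend to stay accessible in many cell types, and enhancers within introns and between genes open and close with the cell type and its stage.

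The sequence under the strongest of these regions is shown first, because these windows held clear signal in 3 groups and no peak in the fourth. The regions were ordered by their place in each of the 3 lists, ranked by p-value, and the list where a region stood worst decided. Each line gives 200 bp of GRCm38 (plus strand, RefSeq genome) centered on the P0.5 epithelium summit. Capitals mark every match to any of the 21 motifs searched on both strands and described further on.
Efna5 region (chr17:62844442-62844641): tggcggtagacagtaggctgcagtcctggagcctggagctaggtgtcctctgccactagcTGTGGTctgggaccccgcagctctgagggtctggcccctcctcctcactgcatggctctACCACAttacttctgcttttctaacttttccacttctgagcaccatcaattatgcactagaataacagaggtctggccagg
Sertad2 region (chr11:20639903-20640102): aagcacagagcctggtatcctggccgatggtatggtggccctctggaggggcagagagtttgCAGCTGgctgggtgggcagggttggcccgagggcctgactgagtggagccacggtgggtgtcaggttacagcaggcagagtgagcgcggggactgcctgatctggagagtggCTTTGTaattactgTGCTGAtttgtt
Pecr region (chr1:72284230-72284429): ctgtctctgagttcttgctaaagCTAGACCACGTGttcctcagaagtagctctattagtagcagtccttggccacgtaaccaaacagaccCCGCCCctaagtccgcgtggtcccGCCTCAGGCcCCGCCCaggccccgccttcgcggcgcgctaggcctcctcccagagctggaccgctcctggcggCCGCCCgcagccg
Nid1 region (chr13:13490039-13490238): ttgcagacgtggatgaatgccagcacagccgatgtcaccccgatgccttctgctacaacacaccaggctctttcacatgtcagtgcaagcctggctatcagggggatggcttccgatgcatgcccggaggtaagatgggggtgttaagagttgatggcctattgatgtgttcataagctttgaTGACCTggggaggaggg
Ttc7b region (chr12:100527835-100528034): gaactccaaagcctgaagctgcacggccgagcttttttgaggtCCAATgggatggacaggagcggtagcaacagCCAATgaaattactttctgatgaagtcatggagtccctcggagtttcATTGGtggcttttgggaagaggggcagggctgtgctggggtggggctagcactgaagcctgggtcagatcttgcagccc
Etv1 region (chr12:38843845-38844044): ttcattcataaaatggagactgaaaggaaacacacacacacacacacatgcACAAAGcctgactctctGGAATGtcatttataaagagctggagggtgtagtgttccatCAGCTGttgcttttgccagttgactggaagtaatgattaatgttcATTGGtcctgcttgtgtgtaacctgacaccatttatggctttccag

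The Efna5 window holds 2 matches to the Runx letters, and the Etv1 window holds Sox, Tead, AP-4 E-box and NFY matches. The Ttc7b window holds 3 NFY matches, CCAAT or its reverse complement, and the Pecr window, which spans the start site of that gene, holds 3 matches to the Sp letters. The Nid1 window overlaps an exon, and its match is to the RXR letters. Because Tead letters had the largest excess in members in percentage points, the 2 windows below show members outside promoters that hold them. They were chosen after the values were seen and are centered on the E14.5 epithelium summit.
Gask1b region (chr3:79954721-79954920): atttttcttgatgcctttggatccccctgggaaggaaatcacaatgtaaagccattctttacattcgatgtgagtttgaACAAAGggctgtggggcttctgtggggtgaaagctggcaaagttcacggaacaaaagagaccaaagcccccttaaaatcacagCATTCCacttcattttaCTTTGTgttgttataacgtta
Slc8a1 region (chr17:82199166-82199365): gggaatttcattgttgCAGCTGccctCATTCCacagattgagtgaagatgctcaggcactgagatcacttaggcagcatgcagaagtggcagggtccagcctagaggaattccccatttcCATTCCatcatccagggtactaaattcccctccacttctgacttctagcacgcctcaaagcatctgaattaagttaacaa

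The Gask1b window holds 1 Tead match and 2 Sox matches, and the Slc8a1 window holds 2 Tead matches (GGAATG, or CATTCC on the other strand). A match is a run of letters in the reference genome and not a measured binding site. The reference is of another strain than CD1.

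The signal behind each call could be recovered as whole fragments. The fold enrichment and the p-value of every peak fitted 1 background level per list. It was 1.61 fragments at E14.5 in epithelium and 2.37 in fibers, and 1.36 and 1.16 at P0.5, and 100% of the peaks of each list then gave a whole number of fragments at the summit, within 0.02. The weakest call in each list held 7, 8, 7 and 6 fragments in that order, so a P0.5 fiber peak needed 6 fragments, which is 5.18 times the background of that list. The median P0.5 fiber peak held 8 fragments, against 14, 15 and 13 in the other lists, and 5463 P0.5 fiber peaks (8.67%) stood at the call minimum. Missing therefore means fewer than 6 fragments over the shortest stretch that was called, 103 bp in this list, and it is not a measurement of closed chromatin.

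The strongest member lay in an intron of Efna5, the gene of ephrin-A5, a membrane-bound ligand of Eph receptors known for its part in lens fiber packing. This region of 854 bp (chr17:62844334-62845187, GRCm38) held 173 fragments at its summit in E14.5 epithelium, 134 in the fibers of that stage and 63 in P0.5 epithelium, and the nearest P0.5 fiber peak was 8.09 kb away. Signal was highest in E14.5 epithelium and lowest in P0.5 epithelium. Divided by the background of each list, the levels were 108, 56.5 and 46.5, and the P0.5 epithelium level was 8.97 times the lowest P0.5 fiber call.

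The second region lay in an intron of Sertad2, a transcriptional coregulator (chr11:20639886-20640457), with 151, 123 and 65 fragments in the same order of lists, which is kept below wherever 3 numbers of fragments stand together. The third spanned the start site of Pecr, a peroxisomal enoyl-CoA reductase (chr1:72283954-72284474), with 119, 118 and 56 fragments. The fourth covered an exon of Nid1, a basement membrane protein that links laminin and collagen IV in structures such as the lens capsule (chr13:13489436-13490636), with 144, 109 and 57 fragments. In all 4 the P0.5 epithelium held the fewest fragments of the 3 lists with a peak. In none did its level fall below 7.97 times the lowest P0.5 fiber call.

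Further down this order stood an intron region of Etv1, an Ets factor that acts downstream of FGF signaling (chr12:38843550-38844330), with 141, 91 and 56 fragments and the nearest P0.5 fiber peak 49.6 kb away. A region 5.20 kb from the start of Capg, an actin filament capping protein, held 77, 103 and 46 fragments, and an Etl4 intron region held 124, 82 and 56. A region in an intron of Ehbp1, whose nearest start site was that of the homeobox gene Otx1 at 75.6 kb, held 78, 129 and 46 fragments. At E14.5, 6 of the 15 strongest regions held more fragments in fibers than in epithelium, and 1 of them, the Otx1 region, was also higher in fibers once each count was divided by the background of its list (54.4 against 48.5). The other 7 of the 15 strongest were nearest to Ttc7b, Slc17a4, Gm10432, Prl5a1, Ttc17, Gm5535 and Gm10509. Over all 15, fragments ranged from 71 to 173, from 82 to 146 and from 46 to 65 in the 3 lists. Only 2 of the 15 touched a promoter, and 1 had a P0.5 fiber peak within 1 kb.

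**Figure D1:**
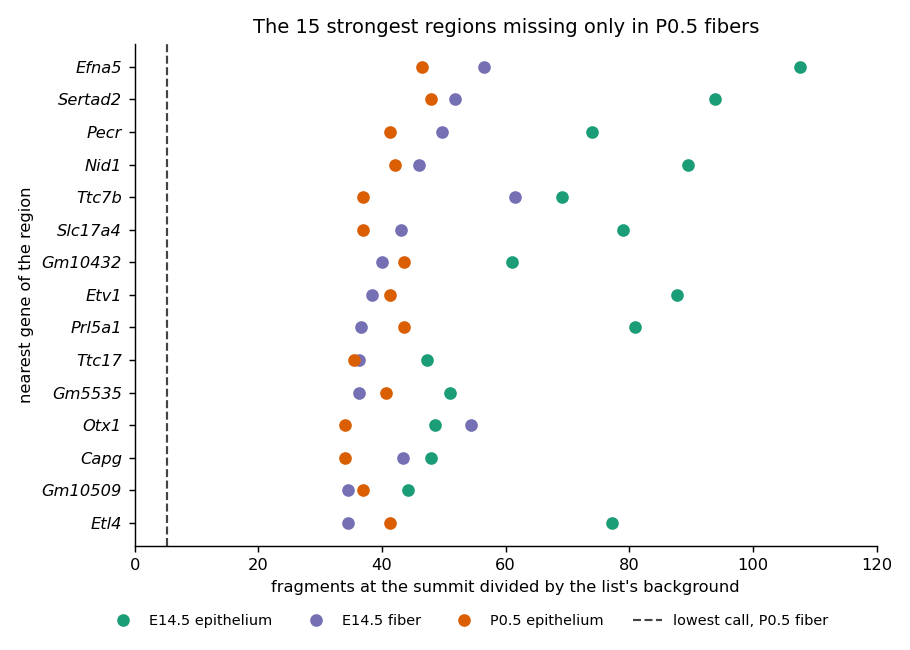
Fragments at the summit divided by the background of the list (x axis) for the 15 strongest regions missing only in P0.5 fibers, named by nearest gene, with 1 point per list. Every point lies to the right of the dashed line, the lowest P0.5 fiber call at 5.18 times background, and the E14.5 epithelium point of the Efna5 region is farthest right at 108.

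Most members were far weaker than these. The median member held 23, 24 and 13 fragments, with maxima of 173, 231 and 68, while the medians of the regions open in all 4 groups were 58, 87 and 28. Members were also narrower, with a median merged width of 476 bp against 1177 bp. These values belong to the lists that chose the members and are given as a description. The P0.5 epithelium level was at least 2 times the lowest P0.5 fiber call in 6346 members (40.7%), at least 4 times in 916 (5.88%) and at least 8 times in 24 (0.154%).

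The ratio of levels between the lists that held the members differed between the sets of regions. Divided by background, the E14.5 fiber level of a member was a median 0.756 of its E14.5 epithelium level, and it was the lower of the pair in 11393 members (73.1%). In the regions open in all 4 groups this ratio had a median of 1.02, and 48.3% were lower in fibers. Outside promoters the medians were 0.746 in members and 0.945 in regions open in all 4 groups. In the regions missing only in P0.5 epithelium, the mirror image of the members, the same ratio had a median of 1.07, and 44.8% were lower in fibers. At E14.5 that set was weaker than the members, with medians of 12 fragments in epithelium and 20 in fibers, against 23 and 24. The ratio of P0.5 epithelium to E14.5 epithelium had a median of 0.717 in members and 0.556 in regions open in all 4 groups. Outside promoters these medians were 0.712 and 0.619. The share of reads that falls in peaks differs between libraries and scales such ratios, so the medians are not to be read against 1. Each level also needed a call, and the call minimum bounds the ratio of a weak region more closely than that of a strong one. Strength was not matched between the sets, so their medians are a description only.

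Of the 35695 regions that held a peak of the 3 other lists, 43.7% had no P0.5 fiber peak, which is the share the rule fixes. The corresponding share missing in P0.5 epithelium, 4482 of 24588, was 18.2%. The share depended on strength and on location. Among regions with 7 to 10 fragments in P0.5 epithelium, 72.5% of those outside promoters and 52.6% of those at promoters had no P0.5 fiber peak. From 31 to 40 fragments the shares were 39.5% (415 of 1050, 95% Wilson interval 36.6 to 42.5) and 3.78% (86 of 2274, 3.07 to 4.65). At 54 fragments or more they were 11.6% (34 of 293, 8.42 to 15.8) and 0.0877% (3 of 3422, 0.0298 to 0.257). Regions outside promoters lacked a P0.5 fiber peak more often than promoters in each of the 7 classes, and no pair of intervals overlapped.

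**Figure D2:**
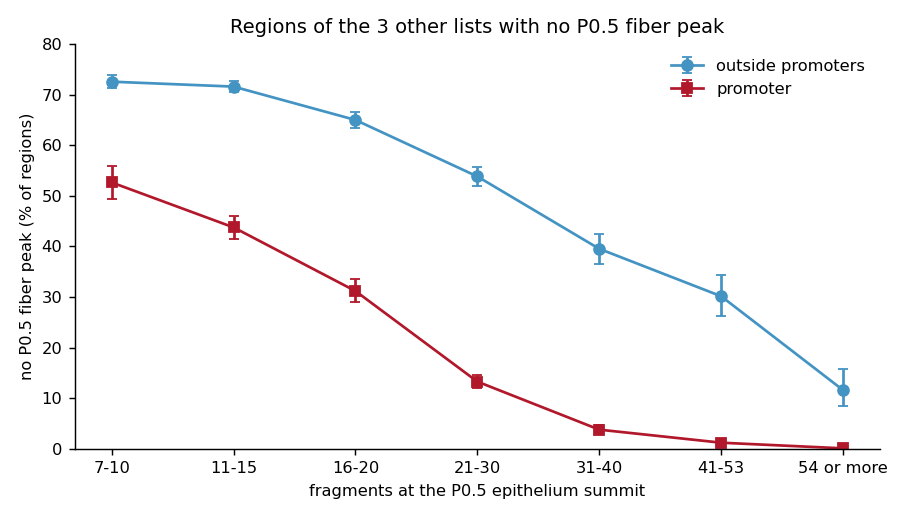
Share of regions with no P0.5 fiber peak, in percent with 95% Wilson intervals (y axis), by fragments at the P0.5 epithelium summit (x axis), for regions outside promoters (circles) and at promoters (squares). Both lines fall with strength, from 72.5% to 11.6% outside promoters and from 52.6% to 0.0877% at promoters.

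Among regions that held a peak of all 4 lists and 54 or more fragments in P0.5 epithelium, the P0.5 fiber level was a median 0.451 of the P0.5 epithelium level in 3419 regions at promoters (10th to 90th percentile 0.292 to 0.672) and 0.363 in 259 outside them (0.205 to 0.866). These regions were kept because they had a P0.5 fiber peak, so the ratios describe them and set no limit for the members. For a weak member, lower accessibility in P0.5 fibers and the smaller signal of that list cannot be told apart.

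The values next to the threshold were these. In 362 regions open in all 4 groups (1.80%) the P0.5 fiber peak stood at the minimum of 6 fragments, and these held medians of 22, 26 and 13 fragments, beside the 23, 24 and 13 of all members. On the other side, 53 members (0.34%) had a P0.5 fiber peak between 11 and 50 bp from their edge. The nearest P0.5 fiber peak was a median 8.03 kb from a member, and 13.6% of members (13.0 to 14.1) had one within 1 kb, or 7.23% with a q value under 0.001 in every list. Within 10 kb the share was 54.8% and within 100 kb 93.4%.

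Location and base composition took no part in the selection. A region was called promoter if it came within 2 kb of the start of a curated RefSeq transcript, otherwise gene body if it overlapped a transcript, otherwise distal within 50 kb and intergenic beyond. By this order 14.6% of members were promoters (2279, 14.1 to 15.2), 49.0% gene body (7633), 25.9% distal (4038) and 10.5% intergenic (1639). In the regions open in all 4 groups, 63.9% were promoters, 21.9% gene body, 11.6% distal and 2.57% intergenic. The promoter share of members minus that of these regions was -49.3 percentage points (95% Newcombe interval -50.2 to -48.5), and the gene body share was higher by 27.1 points (26.1 to 28.1). Against all merged regions other than the members, the promoter share differed by -1.96 points (-2.54 to -1.37) and the gene body share by -6.60 points (-7.42 to -5.78), so the direction for the gene body depended on the set compared.

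Within 5 classes of equal size by P0.5 epithelium fragments, the promoter share of members lay between 11.96% and 19.5%, while that of the regions open in all 4 groups climbed from 25.8% to 89.8%. With the regions open in all 4 groups weighted to the strength of the members, the difference was -24.7 points (-25.8 to -23.7). Against the regions missing only in P0.5 epithelium, the promoter share of members differed by -3.85 points (-5.14 to -2.61). With promoters defined by 1 kb that difference was 0.19 points, with an interval from -0.87 to 1.21. The intergenic share was higher in members than in this mirror set by 7.43 points (6.71 to 8.11) and the difference of the gene body share was -10.5 points (-12.1 to -8.85).

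**Figure D3:**
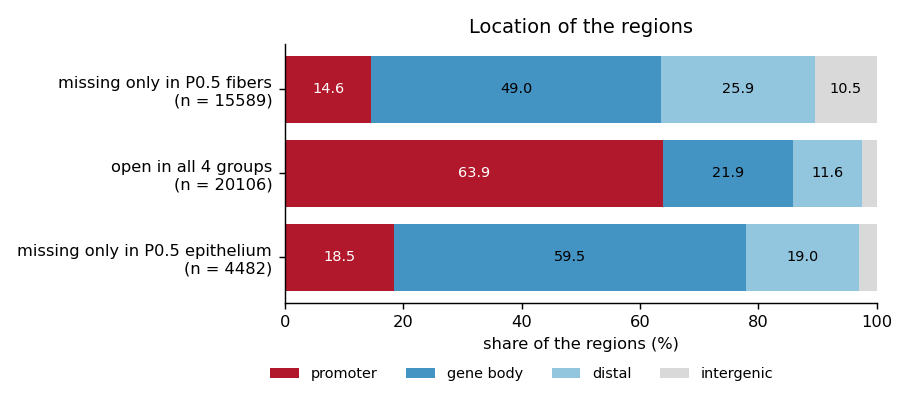
Share of regions by location, in percent (x axis), for the 15589 members, the 20106 regions open in all 4 groups and the 4482 regions missing only in P0.5 epithelium. Promoters make up 14.6%, 63.9% and 18.5% of the bars.

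At the P0.5 epithelium summit, 7.81% of members lay in an exon, 49.96% in an intron and 42.2% between genes, against 29.4%, 27.0% and 43.6% in the regions open in all 4 groups. Members were poorer in GC than the regions open in all 4 groups. In the 200 bp around the E14.5 epithelium summit, members outside promoters had a mean GC content of 52.4% and 4.12 CpG sites, and regions open in all 4 groups outside promoters had 58.1% and 7.21. Members at promoters had 57.6% GC and 8.66 CpG sites, against 66.9% and 18.4 in promoters open in all 4 groups and 59.5% and 10.7 in all merged regions at promoters. The mirror set outside promoters had 55.9% GC and 4.55 CpG sites, and all merged regions outside promoters had 52.4% GC and 3.51 CpG sites in windows of the same length.

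Because GC content alone changes how often short motifs occur, motif shares outside promoters were compared both as counted and after weighting. For each of 21 consensus motifs the 200 bp around the E14.5 epithelium summit were searched on both strands in 13310 members and 7249 regions open in all 4 groups. As counted, 10 motifs were more frequent in members and 5 less frequent, by Newcombe intervals that excluded 0. Weighted over 5 classes of GC content and 4 of P0.5 epithelium fragments, 2 motifs were more frequent, Tead and Ets, and 4 less frequent, Maf, Runx, RXR and Sp. Of these, Ets, Runx and RXR turned with the setting. As counted with a q value under 0.001 in every list, the Ets difference was -0.29 points (-0.57 to -0.06), the Runx difference 1.40 (0.24 to 2.52) and the RXR difference 1.16 (0.04 to 2.23), and Ets letters occurred in only 49 members.

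Tead was the motif with the largest excess in percentage points, and an excess remained after weighting. As a ratio of shares, Tead (1.33) stood below Gata (1.54), Hsf (1.47), Pitx (1.42) and Fox. When whole merged regions were searched, which are narrower in members, Tead letters were less frequent in members (36.7% against 44.8%, a difference of -8.01 points, -9.42 to -6.60). Tead factors are the DNA-binding partners of Yap in the Hippo pathway, which acts in lens epithelial proliferation. The letters GGAATG occurred in 21.2% of members outside promoters (2826 of 13310), in 15.9% of regions open in all 4 groups, in 14.2% of regions missing only in P0.5 epithelium and in 14.6% of all merged regions outside promoters. The difference from the regions open in all 4 groups was 5.29 points (4.18 to 6.37), 2.52 points after weighting by GC content (1.08 to 3.97) and 3.42 points after weighting by GC content and fragments (1.96 to 4.88). Against the mirror set it was 7.03 points (5.67 to 8.33). NFY (4.77 points), Sox (4.32), CTCF (4.21), Pitx (3.29), Gata (2.08), Fox (1.34), AP-1 (1.16) and Hsf (1.05) were also more frequent in members than in that set, by intervals above 0, and RXR, Maf, AP-4 E-box and AP-2 letters were less frequent. The mirror set was richer in GC and, outside promoters, weaker at E14.5. Its medians were 12 fragments in epithelium and 20 in fibers, against 23 and 24 in members. The weighting that follows is by GC content only, so strength was not matched. Weighted to the GC content of the members, the Tead difference from the mirror set was 4.97 points (3.23 to 6.71). NFY (3.82), CTCF (2.96), Pitx (2.18) and Fox (0.77) kept intervals above 0, while those of Sox, Gata, AP-1 and Hsf included 0. RXR and Maf stayed less frequent (-3.86 and -4.64), AP-4 E-box did not, and AP-2 turned to 1.96 points (0.83 to 3.08). Sp (2.92 points), Ets (0.19) and NRF1 (0.18) were more frequent than in the mirror set only after this weighting. Ets and NRF1 letters were rare there, in 0.22% and 0.16% of 3654 regions as counted. NF1 letters occurred in 10 members and in 0% of the mirror set. The NF1 difference was 0.08 points with and without the weighting, with a Newcombe interval from -0.04 to 0.14. Outside promoters, members with the Tead letters had an E14.5 fiber level that was a median 0.62 of their E14.5 epithelium level. Members without them had 0.78. The other sets were not split in this way, so this is not shown to be particular to the members. The Tead share was 18.5% of members outside promoters with 7 to 10 fragments in P0.5 epithelium, 29.6% of those with 41 to 53 and 29.4% of the 34 with 54 or more, and the regions open in all 4 groups had 13.9%, 20.7% and 16.2% in these classes.

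Sox letters (ACAAAG), bound by the Sox family that includes the lens factors Sox1 and Sox2, occurred in 20.1% of members and 15.97% of regions open in all 4 groups. After weighting by GC content the difference was -0.05 points, with an interval from -1.54 to 1.45. Pitx letters (TAATCC), also read by Otx factors, occurred in 8.11% and 5.72%, and Gata letters (AGATAA) in 6.90% and 4.47%. Over all merged regions outside promoters these 3 motifs occurred in 16.8%, 5.97% and 6.56% of windows of the same length. Both differences were within counting error after weighting. The same held for Meis (TGACAG, 21.6% and 19.04%), AP-1 (TGANTCA, 7.90% and 6.61%), Fox (TGTTTAC, 2.87% and 2.12%), Smad (GTCTAG, 5.82% and 4.87%), Hsf (GAANNTTC, 4.39% and 2.98%) and NFY (CCAAT, 22.0% and 19.98%).

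Sp letters (GGGCGG), typical of CpG-rich promoters, had the largest deficit, with 9.33% of members and 21.9% of regions open in all 4 groups. The difference of -12.6 points shrank to -2.31 after weighting by GC content and to -0.85 with fragments added (-1.69 to -0.01). AP-2 letters (GCCNNNGGC), for the family that includes the lens epithelium factor Tfap2a, occurred in 11.6% and 16.8%, and the difference weighted by GC content was 0.37 points (-0.61 to 1.34). NRF1, Myc E-box (CACGTG) and AP-4 E-box (CAGCTG) letters were less frequent as counted. The weighted differences of the E-boxes were within counting error, and that of NRF1 was so only with fragments added.

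Maf letters (TGCTGA), part of the sites of c-Maf, a factor that activates crystallin genes in fibers, occurred in 24.0% of members and 24.2% of regions open in all 4 groups, a difference of -0.23 points (-1.47 to 0.98). Weighted by GC content the difference was -2.21 points (-3.78 to -0.64). CTCF motif matches, for the factor that anchors chromatin loops, occurred in 11.2% of members and 11.8% of regions open in all 4 groups, and in 4.95% of all merged regions outside promoters. Outside promoters, members with the CTCF letters had a median E14.5 fiber to epithelium ratio of 0.87, and members without them 0.73. The other sets were not split by these letters. Their share was 13.9% of members at 11 to 15 fragments in P0.5 epithelium and 4.34% at 31 to 40, and in the regions open in all 4 groups it was 14.0% and 7.87%. The other 4 motifs, NF1, Ets (CCGGAAGT), Runx (TGTGGT) and RXR (AGGTCA), did not pass as counted. Over all merged regions outside promoters, Runx letters occurred in 16.5%, RXR letters in 15.1%, NFY letters in 20.1%, AP-4 E-box letters in 18.8%, Sp letters in 6.26%, AP-2 letters in 9.59% and Maf letters in 24.3% of such windows.

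**Figure D4:**
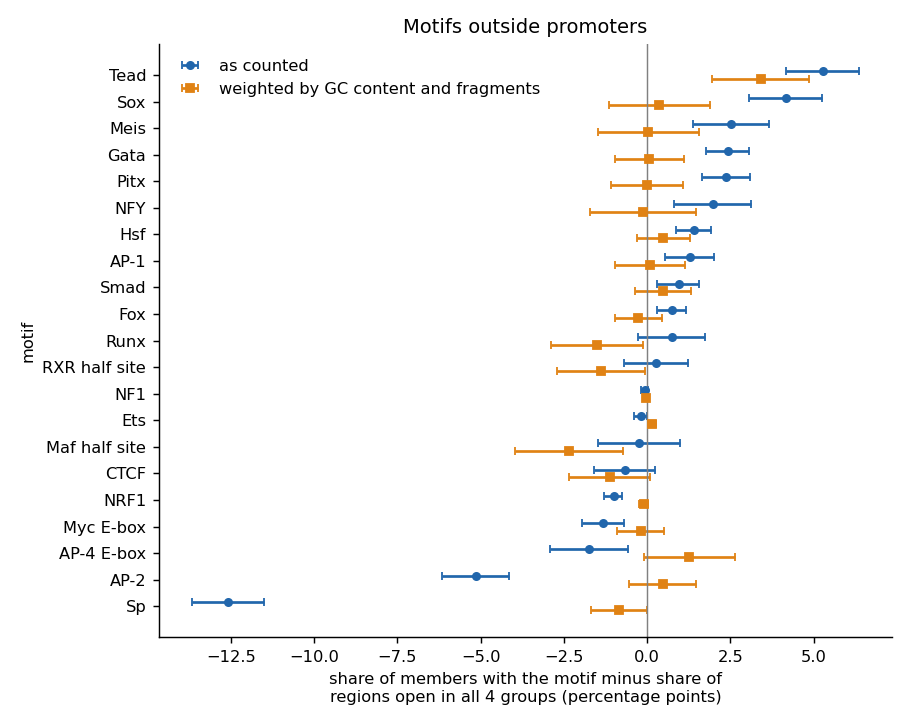
Share of members outside promoters with a motif minus the share of regions open in all 4 groups, in percentage points with 95% intervals (x axis), for 21 motifs, as counted (circles) and weighted by GC content and fragments (squares). The Tead points lie at 5.29 and 3.42, to the right of 0 with both intervals, while the Sox point moves from 4.17 to 0.37.

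Promoters were next read gene by gene. Of 15468 genes with a peak within 2 kb of a start site in the 3 other lists, 1281 (8.28%) had none in P0.5 fibers. With a q value under 0.001 in every list they were 2029 of 15252 (13.3%). Lists of lens genes and pathways were compared with this share. In 10 of the 16 lists that were not cell type markers no promoter was missing, including those of 20 lens epithelium transcription factors, 19 fiber differentiation factors, 10 crystallins, 21 Hippo pathway genes, 22 FGF and ERK genes, 19 Notch genes and 28 Wnt genes that had a promoter peak in the 3 other lists. Over all lists, 16 of 354 genes (4.52%) lacked a P0.5 fiber promoter peak, beside 8.28% over all genes. Promoter strength was not matched in this comparison. Over all regions at promoters the missing share fell from 52.6% in the weakest class of P0.5 epithelium fragments to 0.0877% in the strongest.

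The largest number was in the adhesion and lens capsule list, 4 of 29. Cldn1, a tight junction protein, had promoter peaks of 35, 47 and 24 fragments. Col4a5, a collagen IV chain of the capsule, had 31, 62 and 16, Nid1 had 18, 38 and 14, and Itgb4, an integrin of hemidesmosomes, had 13, 23 and 12. The 4 genes had between 12 and 24 fragments in P0.5 epithelium, and of all regions at promoters 43.8% with 11 to 15 fragments, 31.2% with 16 to 20 and 13.3% with 21 to 30 had no P0.5 fiber peak.

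Of the DNA replication and mitosis genes 3 of 40 promoters were missing (7.50%), near the 8.28% over all genes. Aurkb, the kinase of the chromosomal passenger complex, had 65, 98 and 27 fragments, Bub1b, a spindle checkpoint kinase, had 87, 80 and 27, and Cenpa, the centromeric histone H3 variant, had 97, 109 and 27. Of all regions at promoters with 21 to 30 fragments in P0.5 epithelium, the class that holds the value of each, 13.3% had no P0.5 fiber peak. Of the BMP and TGF-beta list 2 of 23 were missing, Bmpr1b, a type I BMP receptor, with 67, 59 and 36 fragments and Tgfbr2, a TGF-beta receptor, with 29, 22 and 12. Single promoters were missing for Sptbn1, a spectrin of the membrane skeleton (52, 65 and 30), Tagln, an actin-binding protein (28, 20 and 14), and Nqo1, a quinone reductase controlled by Nrf2 (28, 19 and 18). Among the strongest missing promoters outside the lists, picked after the values were seen, were those of Nup43, a nuclear pore protein (86, 91 and 43), Eif2d, an initiation factor (68, 71 and 55), and Cp, which encodes ceruloplasmin (115, 105 and 42).

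Markers of other cell types were read in the same way, since dissected tissue can carry vessels and adjoining eye tissue. Of 6 endothelium markers, 4 had a promoter peak in the 3 other lists and 3 had one in P0.5 fibers, and the promoter of Tek, an endothelial receptor, was missing (45, 42 and 15 fragments). Csf1r, the only one of 5 macrophage markers with a promoter peak in the 3 other lists, was missing (16, 15 and 12), and no macrophage marker had a P0.5 fiber promoter peak. The retina markers Rax (17, 26 and 7) and Crx (12, 26 and 11) were missing as well. Promoters were read by windows around start sites, and no merged region of the members was assigned to Csf1r, Rax or Crx. No erythroid, pigment epithelium or cornea promoter was missing, where 1, 1 and 0 markers had a peak in the 3 other lists. The pigment epithelium marker was Pmel, whose promoter peaks had the same values as those of the cell cycle kinase Cdk2 (114, 106, 33 and 9 fragments in the 4 lists), so they are no measure of that tissue. All 5 lens epithelium markers and 8 lens fiber markers had promoter peaks in all 4 lists. Outside promoters, regions held by the 3 other lists were members in 5 of 6 cases at the endothelium markers, 2 of 2 at the macrophage and 2 of 2 at the cornea markers, 1 of 1 at the pigment epithelium and 1 of 3 at the retina markers, beside 7 of 12 at the lens epithelium and 4 of 7 at the lens fiber markers and 64.7% of all regions. These counts are too small to set any list apart from that share. The part of such cells in the members was not tested.

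Outside promoters the picture of the same genes was different, since 64.7% of all regions held by the 3 other lists had no P0.5 fiber peak there, against 15.1% of regions at promoters. Around the 382 listed genes, 482 members and 301 regions open in all 4 groups lay outside promoters, a share of 61.6%. The lens epithelium transcription factors had 35 members of 64 such regions (54.7%), with 12 at Meis1, a homeobox factor upstream of Pax6 in lens induction. The fiber differentiation factors had 28 of 50 (56.0%), with 12 at Zeb2. The Hippo genes had 32 of 63 (50.8%), with 12 at Tead1, the FGF and ERK genes 25 of 52 (48.1%), the Notch genes 28 of 47 (59.6%) and the Wnt genes 68 of 97 (70.1%), with 13 at Tcf7l1, a repressor of Wnt targets. The adhesion and lens capsule genes had 106 of 160 (66.3%), with 18 at Cdh4 and 12 at Col4a2. The DNA replication and mitosis genes had 14 of 20 (70.0%), and the crystallins 4 of 12 (33.3%).

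The actin genes had 34 of 48 (70.8%), the BMP and TGF-beta genes 43 of 66 (65.2%), the glutathione and Nrf2 genes 13 of 17 (76.5%), the autophagy genes 16 of 31 (51.6%), the cell cycle exit genes 10 of 19 (52.6%), the fiber membrane genes 10 of 20 and the ribosomal protein genes 6 of 7. Regions of a gene share their locus, and strength was not matched between lists.

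**Figure D5:**
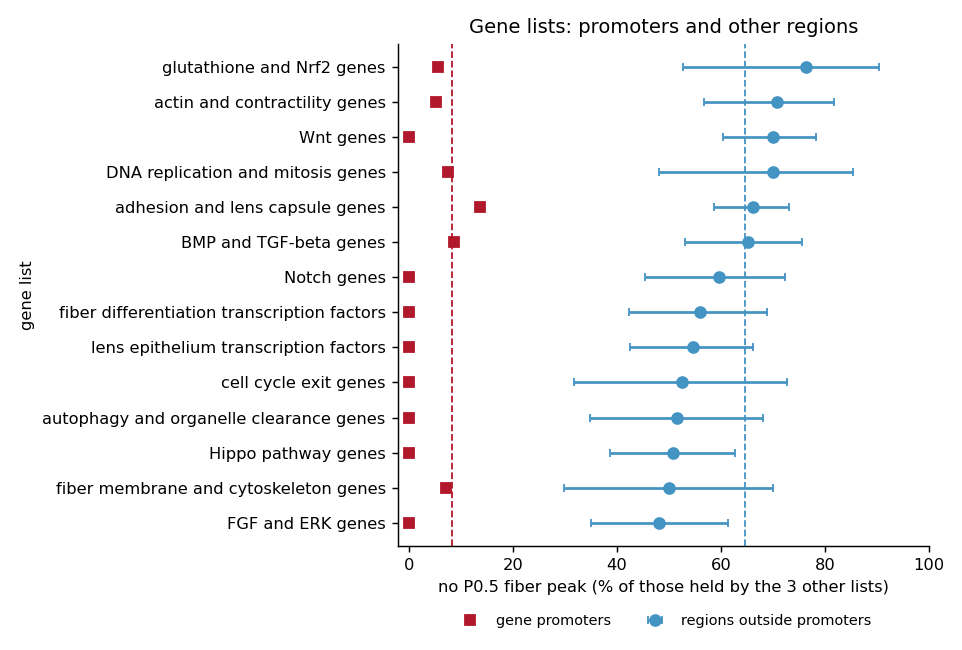
Share with no P0.5 fiber peak among those held by the 3 other lists, in percent (x axis), for gene promoters (squares) and for regions outside promoters (circles, 95% Wilson intervals), in the 14 gene lists with at least 15 such regions. Dashed lines mark the shares over all genes (8.28%) and over all regions outside promoters (64.7%), and the Wnt genes have 0 missing promoters beside 70.1% of their other regions.

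The loci of 4 known lens genes were read region by region, beside the 43.7% of all regions held by the 3 other lists that were members. Pax6, required for lens formation, kept its promoter in every list, with 135, 359 and 52 fragments in the 3 lists and 22 in P0.5 fibers, and the same order is used for the other 3 genes. Of its 13 merged regions 3 were members and 5 were open in all 4 groups. The members lay within the gene between 10.1 and 12.5 kb from the nearest start site, and their P0.5 epithelium peaks held 9, 12 and 12 fragments. Foxe3, an epithelial forkhead factor, had promoter peaks of 125, 102, 48 and 18 fragments. Of its 11 regions 2 were open in all 4 groups and 1 was a member, 4.51 kb from its start (chr4:114930576-114931189), with 15, 17 and 14 fragments in the 3 lists. Prox1, needed for fiber elongation, had 69, 72, 27 and 11 fragments at its promoter. Of its 49 regions 8 were open in all 4 groups and 1 was a member, an intron region with 21, 32 and 13. Mip, the main fiber water channel, had 39, 248, 16 and 14 fragments, and of its 4 regions 1 was open in all 4 groups and none was a member.

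Members were spread widely over genes. By the stepwise assignment 13950 members fell to 7532 genes, 437 of which had at least 5 and 66 at least 10. Crim1, a transmembrane protein that binds BMPs and is needed in lens development, had 28 members and 10 regions open in all 4 groups among 122 merged regions. Foxp1, a forkhead factor, had 28 and 6 among 189, Slit3, a secreted guidance ligand, 24 and 11 among 283, and Trio 24 and 8 among 158. Msi2, an RNA-binding protein, had 22 and 16. Cdh4, a classical cadherin, Maml3, a Notch coactivator, Pdzd2, Sipa1l3 and Zfp536 had 18 members each. These 10 genes are long, from 176 to 596 kb against a median of 13.5 kb over all genes, and outside promoters 56.3% to 86.7% of their regions held by the 3 other lists were members, beside 64.7% over all genes. Sipa1l3, a gene tied to cataract, had the lowest of these shares and Foxp1 the highest.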

How the data were processed

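ATAC-seq reads were, per the labels, processed with Trim Galore 0.4.1, Bowtie2 2.3.3.1, SAMtools 1.2, Picard 2.1.1 and MACS2 2.1 on mm10. The authors pooled the 2 libraries of each group, called peaks at a q value under 0.05 and deposited 4 lists of 100003 (E14.5 epithelium), 123743 (E14.5 fiber), 58592 (P0.5 epithelium) and 62995 (P0.5 fiber) peaks. The deposited fold enrichment is a ratio of fragments at the summit to background, with 1 added to each, and the deposited p-values are on a −log10 scale. The q-value column, a score the authors deposited, holds −log10 of the p-value that MACS2 adjusted over the list. Libraries were not analysed singly, and 0 columns stayed unassigned. Read totals are not used here, and the fragments at the summit give the depth behind a call.

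Peaks were merged with bedtools 2.31.1 at 10 bp. Fragments were recovered from fold and p, one background per list. Places were assigned from 45657 curated RefSeq transcripts of GRCm38 (26089 genes). Shares carry Wilson and differences Newcombe 95% intervals (scipy 1.17.1). Weighted differences carry normal intervals. Scripts were tested on simulated data. Genes were named by fixed rules: those nearest the 15 regions with the best place in their worst list, the 10 with most members, up to 4 missing promoters per list, cell type markers, and Foxe3, Prox1, Mip and Pax6. Outside these rules, Nup43, Eif2d, Cp, Gask1b, Slc8a1 and the genes named for their number of members within a list (Meis1, Zeb2, Tead1, Tcf7l1, Cdh4 and Col4a2) were chosen after their values were seen. Members, gene lists and motifs were chosen with earlier results of these data known. Alternatives changed the q value, list length, merge distance, promoter width, transcripts, place of a region and motif window. The weighted comparisons were added after seeing the data.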

Additional observations from a re-analysis of the deposited data

How the results depend on the processing

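No paired analysis was possible because the 2 libraries of a group were pooled before peaks were called. Of 69 values recomputed under alternatives, 52 stayed within the limits set for them, which were the same sign and side of 0 for a difference, the interval for a share and 1.5 times for a count. Among these, the difference of promoter share from the regions open in all 4 groups shrank from -49.3 to -24.7 points when weighted by fragments. With a q value under 0.001 in every list, the promoter share was 17.9%, the share within 1 kb of a P0.5 fiber peak 7.23% and the genes with a missing promoter 2029. With equal numbers of strongest peaks the first 2 were 15.5% and 12.03%, and merging at 100 bp gave 12.6% for the share within 1 kb. The promoter share was 12.5% without members that had a P0.5 fiber peak within 1 kb, 11.2% with promoters of 1 kb, 12.8% with protein-coding transcripts only and 13.7% at summits. The difference of promoter share from the regions missing only in P0.5 epithelium was -1.10 points (interval to 0.14) without members within 1 kb of a P0.5 fiber peak, and with promoters of 1 kb it turned to 0.19. Searching whole merged regions gave 0 motifs more frequent and 20 less frequent, Tead among the latter, where members were narrower (median 460 bp against 811 bp). Weighting by GC content gave 1 and 3, and weighting by GC content and fragments gave 2 more frequent. The cause of these shifts was not tested. The number of members ranged from 11250 to 16827. Without replicates, no value here has an error between animals.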

Other observations

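Chromosome X differed from the autosomes at promoters. Of the 459 X regions at promoters that held a peak of the 3 other lists, 137 had no P0.5 fiber peak (29.8%, Wilson interval 25.8 to 34.2), against 2142 of 14677 on the autosomes (14.6%). The difference was 15.3 points (Newcombe interval 11.2 to 19.6). X promoters were weaker, with a median of 27 fragments in P0.5 epithelium against 33 on the autosomes, and autosomal promoters weighted to the fragments of the X promoters lacked a P0.5 fiber peak in 17.5%. Outside promoters the X share was 71.6% of 176 regions and the autosomal share 64.7% of 20383, a difference of 6.91 points with an interval from -0.19 to 13.1, and the autosomal share weighted to the fragments of the X regions was 61.5%. Over all regions the X share differed by -2.30 points (-6.10 to 1.61). The sex of the pooled mice is not given in the sources used here.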
